A study of Mus musculus with 42 samples.

Results

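The transcripts described here are those of 10 genes of the mammalian circadian clock: Clock, Arntl (also called Bmal1), Per1, Per2, Per3, Cry1, Cry2, Nr1d1, Nr1d2 and Dbp. They were chosen by name, and all 10 were found by symbol among the 14296 genes of the deposited files. The cells were mouse W9.5 embryonic stem (ES) cells, a single line of 129X1/SvJ background, from which the cytokine LIF was withdrawn so that they formed embryoid bodies, aggregates in which cells of the germ layers arise without direction. Replicates A and B were harvested every 6 h from 0 to 120 h, which gives 21 time points, 42 poly-A stranded RNA-seq libraries and 2 libraries per time point. The groups differ only in the hours since differentiation began, and no agent or entrainment of the clock is named in the labels. The question here is whether these transcripts changed over the course, and whether they kept a daily period or phase relation while doing so.

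In the mammalian clock, the proteins CLOCK and ARNTL pair on DNA elements called E-boxes and activate Per, Cry, Nr1d1, Nr1d2 and Dbp. PER and CRY proteins then repress that pair, while NR1D1 and NR1D2 repress Arntl through RORE elements and DBP acts on D-boxes, so that in most adult tissues Arntl transcripts peak at the opposite time of day to Nr1d1, Per and Dbp transcripts. Undifferentiated ES cells are known to lack such daily transcript rhythms, which appear as cells differentiate for longer periods.

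The elements of this loop can be read in the start regions of the genes. RefSeq start windows on GRCm38.p6, each from 250 bases before a transcript start to 50 bases after, were held for 9 of the 10 genes (13 windows), and 4 windows are shown because they carry the E-box, RORE or D-box letters through which the loop acts. Capitals mark the matches, which were searched on both strands. They are descriptions of letters, not evidence of binding.
Per1 (chr11:69098699-69098998, plus strand, E-box): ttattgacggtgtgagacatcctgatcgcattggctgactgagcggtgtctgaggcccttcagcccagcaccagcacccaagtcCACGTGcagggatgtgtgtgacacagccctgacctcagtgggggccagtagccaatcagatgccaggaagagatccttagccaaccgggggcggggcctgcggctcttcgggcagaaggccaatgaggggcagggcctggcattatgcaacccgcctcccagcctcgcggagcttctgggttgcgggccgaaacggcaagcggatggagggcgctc
Cry1 (chr10:85185005-85185304, minus strand, E-box and its variant): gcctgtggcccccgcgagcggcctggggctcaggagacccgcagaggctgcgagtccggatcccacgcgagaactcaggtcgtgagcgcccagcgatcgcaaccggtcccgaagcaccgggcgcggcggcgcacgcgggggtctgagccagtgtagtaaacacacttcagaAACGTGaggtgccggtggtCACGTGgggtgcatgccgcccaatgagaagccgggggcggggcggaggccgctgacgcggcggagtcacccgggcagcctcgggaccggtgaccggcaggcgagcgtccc
Arntl (chr7:113207261-113207560, plus strand, RORE): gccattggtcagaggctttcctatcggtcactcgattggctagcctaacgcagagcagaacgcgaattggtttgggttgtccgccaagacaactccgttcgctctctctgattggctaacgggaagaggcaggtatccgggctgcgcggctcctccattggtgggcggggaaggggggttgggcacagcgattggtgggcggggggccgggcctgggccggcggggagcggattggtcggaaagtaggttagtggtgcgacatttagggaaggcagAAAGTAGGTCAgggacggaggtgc
Per3 (chr4:151044616-151044915, minus strand, D-boxes): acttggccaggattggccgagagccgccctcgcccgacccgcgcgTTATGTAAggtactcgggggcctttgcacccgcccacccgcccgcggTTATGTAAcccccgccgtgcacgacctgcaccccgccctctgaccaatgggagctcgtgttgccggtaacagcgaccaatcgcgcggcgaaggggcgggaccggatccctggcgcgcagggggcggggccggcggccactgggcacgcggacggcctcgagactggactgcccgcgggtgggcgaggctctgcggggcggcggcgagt

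The Per1 window held the E-box CACGTG at position -166 from the start site, and the Cry1 window held it at -60. CACGTG was found in 7.15% of all 32851 RefSeq start windows. The variant CACGTT, read on the opposite strand, began at -79 in the Cry1 window without overlap with the E-box, at -166 in Cry2 and at -28 in Nr1d1, against 4.69% of all windows. The RORE of Arntl lay at +27 in its second window, a match found in 0.384% of windows, and the Per3 window held the D-box TTATGTAA at -205 and at -158, where this or TTACGTAA was found in 1.06% of windows. None of these letters was found in the windows of Clock, Nr1d2 or Dbp.

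All values below are on the log2 scale of CPM, a library's reads of a gene divided by its library size and multiplied up to a common total (log2 CPM), so a difference of 1 is a doubling, and changes were tested with limma across all 14296 genes. Of the 10 clock genes, 9 changed over the 21 time points at an adjusted p below 0.0001, against 74.6% of all genes. The exception was Clock (adjusted p = 0.0214). From the highest to the lowest time point, the mean of the duplicates spanned 13.6-fold for Arntl, 5.59-fold for Per2, 5.35-fold for Per3, 3.93-fold for Per1, 3.88-fold for Nr1d1 and 3.55-fold for Dbp. The spans of Nr1d2, Cry1, Clock and Cry2 were 2.67-fold, 2.40-fold, 2.21-fold and 2.12-fold. The values average over whole cultures, so fewer cells with a transcript and less transcript per cell cannot be told apart. The p-values measure the spread between duplicates, and nothing used here says whether all libraries of a letter come from the same culture.

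**Figure D1:**
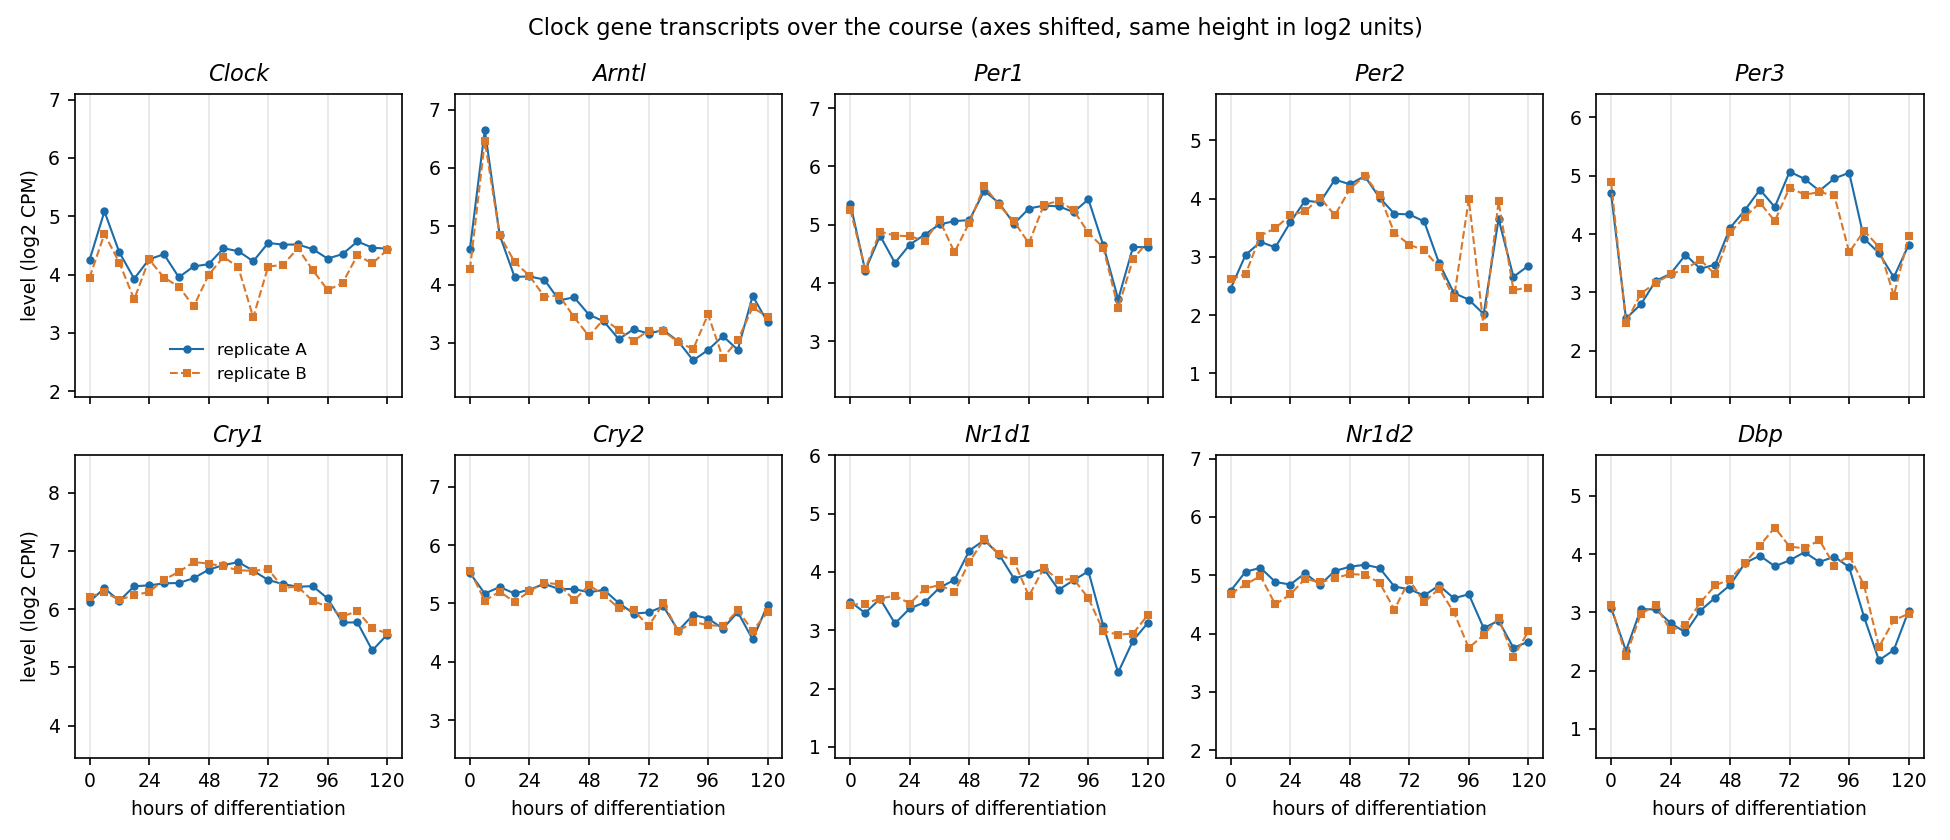
Level of each clock gene in log2 CPM (vertical axis, the same height in every panel) against hours of differentiation, with replicate A as blue circles and replicate B as orange squares. Arntl peaked at 6 h and then declined, Per3 was lowest at 6 h, and Per1, Per2 and Nr1d1 were highest at 54 h in both replicates.

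Arntl (chr7:113207465-113314126, plus strand), which encodes the partner of CLOCK, made the largest move of the 10 genes. Its level at 0 h was 4.61 in replicate A and 4.26 in replicate B. At 6 h it was 6.66 and 6.46, and at 12 h it was back at 4.85 in both. The 2 libraries at 6 h stood above all 40 other libraries. The step from 0 to 6 h was +2.12 (SE 0.17, limma adjusted p = 7.41e-11), a 4.36-fold rise, and the step from 6 to 12 h was a fall of 1.71 (SE 0.17, adjusted p = 3.40e-08). Later levels were lower still, with 4.14 and 4.15 at 24 h, 3.48 and 3.12 at 48 h and 3.16 and 3.21 at 72 h. Its lowest values were 2.70 in replicate A at 90 h and 2.74 in replicate B at 102 h. The last 2 time points were higher, with 3.81 and 3.61 at 114 h and 3.35 and 3.44 at 120 h. Compared with 0 h, the level at 120 h had fallen by 1.04 (SE 0.17, adjusted p = 1.19e-05), a call that was lost without the 0 h library of replicate A (-0.86, adjusted p = 0.00132), the 120 h library of replicate A (-0.99, adjusted p = 0.000502) or that of replicate B (-1.08, adjusted p = 0.000185).

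Clock (chr5:76209868-76304792, minus strand), the gene of ARNTL's partner, was also highest at 6 h in both replicates, with 5.08 and 4.70 against 4.25 and 3.95 at 0 h. This step of +0.79 (SE 0.25, adjusted p = 0.0093) did not pass the threshold. The whole course stayed between 3.93 and 5.08 in replicate A and between 3.27 and 4.70 in replicate B. Clock was higher in replicate A than in replicate B at all 21 time points, which was true of 33 genes (0.231% of all), while 26 genes (0.182%) were higher in B at every time point. The difference was 0.96 at 66 h (4.23 against 3.27) and under 0.01 at 24 h (4.26 in both). This offset is part of the spread between duplicates on which the tests of Clock rest, and both of its calls over the course and at 6 h change when it is fitted. The 66 h libraries held similar numbers of counted reads (26340024 in A and 27858688 in B), and the part of depth or handling in the offset was not tested.

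The period genes encode the repressors that pair with CRY, and they did not move together at the start. Per1 (chr11:69095217-69109960, plus strand) was at 5.36 and 5.26 at 0 h and at 4.21 and 4.24 at 6 h, so the 2 time points did not overlap. It fell by 1.08 (SE 0.17, adjusted p = 5.38e-06), a call lost without the 0 h library of replicate A (adjusted p = 0.000265), the 6 h library of A (adjusted p = 0.00019) or that of B (adjusted p = 0.000136). It was highest at 54 h in both replicates, at 5.58 and 5.66, and lowest at 108 h, at 3.72 and 3.57. The step from 102 h (4.65 and 4.61) to 108 h was -0.98 (SE 0.17, adjusted p = 0.000183) and that from 108 to 114 h was +0.87 (SE 0.17, adjusted p = 0.00065), neither past the threshold.

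Per3 (chr4:151003652-151044665, minus strand) was at 4.70 and 4.89 at 0 h, then at 2.55 and 2.48 at 6 h, its lowest point in both replicates. The fall of 2.28 (SE 0.23, adjusted p = 4.36e-09) amounted to 4.85-fold, in the step in which Arntl rose. Per3 was still at 3.32 and 3.31 at 24 h, 1.48 below 0 h (SE 0.23, adjusted p = 5.57e-06). That call was lost without either 24 h library or without the 0 h library of replicate B (adjusted p from 0.00017 to 0.000342). It was back at 5.07 and 4.80 by 72 h, near its level in undifferentiated cells. The gene lies within the span of Camta1 on the same strand, with no exon bases shared.

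Per2 (chr1:91415982-91459324, minus strand) took a different course. Its level was 2.46 and 2.61 at 0 h and 3.59 and 3.72 at 24 h, and it was highest at 54 h, at 4.38 and 4.39. The change from 0 to 6 h was +0.33 (SE 0.31, adjusted p = 0.365), and that from 0 to 24 h was +1.12 (SE 0.31, adjusted p = 0.00303). It was lowest at 102 h, at 2.02 and 1.79, and 6 h later stood at 3.65 and 3.95. That step of +1.90 (SE 0.31, adjusted p = 7.36e-05), 3.72-fold, was among the 2.04% of genes called from 102 to 108 h (1.37% higher). The call was lost without any single library of the 4 compared (102 h A, 102 h B, 108 h A or 108 h B), at changes from +1.74 to +2.05 and adjusted p from 0.000736 to 0.00391. At 114 h Per2 was at 2.66 and 2.43.

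The replicates parted at 96 h. Per2 was then at 2.27 in A and 3.99 in B, Per3 at 5.05 in A and 3.69 in B, and Nr1d2 at 4.67 in A and 3.75 in B. The summed level of 3 markers of primitive streak and mesoderm (T, Mixl1 and Eomes) was 95.7 CPM in A and 454 CPM in B at the same hour, and 14.7 and 13.8 CPM at 0 h. At 96 h the markers of endoderm came to 9.36 CPM in A and 27.0 CPM in B, those of pluripotent cells to 1470 and 2431 CPM, those of neuroectoderm to 116 and 124 CPM and those of fibroblasts or feeder cells to 24.2 and 9.16 CPM. The part of these cell types in the split was not tested.

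The cryptochromes repress CLOCK and ARNTL, and both of their transcripts ended below their starting level. Cry1 (chr10:85131700-85185064, minus strand) was at 6.13 and 6.22 at 0 h, reached its highest values of 6.81 at 60 h in A and 6.81 at 42 h in B, and ended at 5.56 and 5.59 at 120 h. Cry2 (chr2:92403646-92434043, minus strand) was highest at 0 h in both replicates, at 5.52 and 5.56, was at 5.17 and 5.05 at 6 h (a difference of -0.43, SE 0.09, adjusted p = 0.00025, short of the threshold) and at 4.97 and 4.85 at 120 h. From 0 to 120 h Cry1 fell by 0.60 (SE 0.11, adjusted p = 6.39e-05) and Cry2 by 0.63 (SE 0.09, adjusted p = 1.90e-06). The call of Cry1 was lost without any single one of the 4 libraries (adjusted p from 0.000539 to 0.00224) and that of Cry2 without the 0 h or the 120 h library of replicate B (adjusted p = 0.000115 and 0.000212). Cry2 also fell by 0.52 from 48 to 72 h (SE 0.09, adjusted p = 6.52e-05), from 5.19 and 5.31 to 4.84 and 4.61. That call was lost without either 48 h library or the 72 h library of B (adjusted p from 0.000427 to 0.0043).

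Nr1d1 (chr11:98767932-98775333, minus strand) and Nr1d2 (chr14:18204054-18239127, minus strand) encode the nuclear receptors that repress Arntl. Nr1d1 was at 3.49 and 3.43 at 0 h and at 3.30 and 3.46 at 6 h, so it differed by -0.08 (SE 0.18, adjusted p = 0.705) across the step in which Arntl rose. It was highest at 54 h, at 4.55 and 4.57, and lowest at 108 h, at 2.28 and 2.92. Nr1d2 was at 4.73 and 4.68 at 0 h, between 4.41 and 5.18 through 72 h, and lowest at 114 h, at 3.76 and 3.60. No single interval tested was past the threshold for either gene. The exons of Nr1d1 share 263 bases with Thra on the opposite strand. Thra was at 4.53 at 0 h and 3.38 at 6 h, and the strand setting of the counting is not given in the sources used here.

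Dbp (chr7:45705088-45710203, plus strand) encodes a D-box activator whose transcript is among the strongest outputs of the clock in adult tissues. It was at 3.08 and 3.12 at 0 h and at 2.34 and 2.25 at 6 h, a difference of -0.80 (SE 0.19, adjusted p = 0.000577) short of the threshold, and returned to 3.06 and 2.98 at 12 h. The highest mean came at 66 h, with 3.79 in A and 4.46 in B, and the lowest at 108 h, with 2.18 and 2.41. Its exons share 539 bases with Sphk2 on the opposite strand, which was at 3.69 at 0 h and 5.05 at 6 h, so the genes differed in direction there.

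Across all 20 steps of 6 h, the 10 genes passed the threshold 5 times in 200 gene and step pairs, against 1.77% of such pairs over all genes: Arntl from 0 to 6 h and from 6 to 12 h, Per1 and Per3 from 0 to 6 h, and Per2 from 102 to 108 h. From 0 to 6 h, 3 of 10 passed, 1 higher and 2 lower, against 26.3% of all genes (11.8% higher and 14.5% lower). From 6 to 12 h it was 1 of 10, lower, against 4.35% (2.88% lower). Over 24 h intervals, 1 of 10 passed from 0 to 24 h (22.7% of all genes, 12.8% lower), 1 from 48 to 72 h (9.38%, 3.78% lower), and 3 from 0 to 120 h (23% of all genes, 10.1% lower), all of them lower. None passed in limma from 24 to 48 h, 72 to 96 h or 96 to 120 h, where 8.97%, 3.39% and 1.94% of all genes did, while 5, 3 and 6 of the 10 had an unadjusted p below 0.05, beside 38.7%, 40.2% and 31.3% of all genes. The median change of the 10 genes from 0 to 120 h was -0.61, beside -0.02 for all genes.

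**Figure D2:**
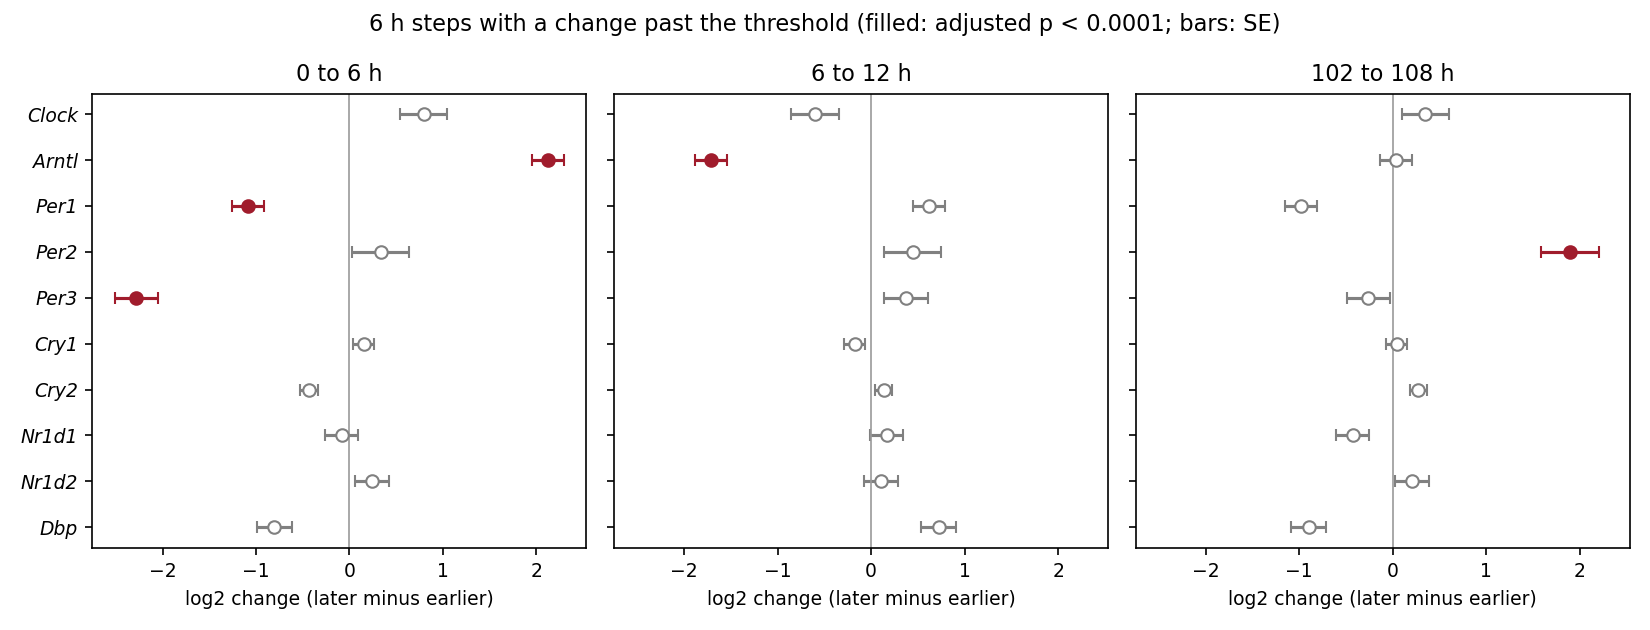
Log2 change of each clock gene (horizontal axis, later minus earlier) over the 3 steps of 6 h in which any of them passed the threshold, with bars of 1 SE and filled points for an adjusted p below 0.0001. Arntl moved up at 6 h and down at 12 h, Per1 and Per3 moved down at 6 h, and Per2 moved up at 108 h.

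Levels of different genes were compared only after division by the exon length of each gene in kb. Averaged over the 42 libraries, Cry1 was highest at 4.56 log2 CPM per kb, followed by Per1 at 2.41, Cry2 at 2.33, Nr1d2 at 2.21, Nr1d1 at 2.02 and Dbp at 1.75. Per2 (0.77), Arntl (0.75), Per3 (0.68) and Clock (0.43) formed the lower end. The lowest library of Cry1 (3.55) was above the highest of Per1 (3.17), the next gene in this order. It was below the highest library of Arntl (3.745), which was that of replicate A at 6 h. All other neighbours in this order overlapped in their ranges over the libraries. Every clock gene had at least 63 reads in each library.

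A daily rhythm was sought as a 24 h cosine on top of a smooth course of each gene, so that the slow course of differentiation would not count as a rhythm. No clock gene passed at an adjusted p below 0.05 in both replicates fitted together, where 1.14% of all genes did, nor in replicate A or replicate B alone, where 0% did. The joint fit counts the libraries of the same hour as independent around the smooth course. Their deviations from it correlated between the replicates, with r from -0.000219 for Cry1 to 0.864 for Arntl and 0.767 for Clock. The p-values, SEs and upper limits of the joint fit can therefore be too small. In limma at an unadjusted p below 0.05, the clock genes numbered 1 of 10 for both replicates together, 0 in A and 1 in B, beside 28%, 11.9% and 5.15% of all genes. Nor did the 24 h component differ between the replicates for any gene at an adjusted p below 0.05 in limma. At an unadjusted p below 0.05 it differed for 0 of 10 clock genes and 25 of all genes (0.175%). That share is far below what such a threshold gives by chance, so this test could hardly show a difference. No agreement between the replicates is drawn from it. The median amplitude (from the midline to the peak) was 0.11 for the 10 genes and 0.11 for all genes. Over 0 to 120 h the upper 95% limits on the ratio of daily peak to trough ran from 1.10-fold for Cry1 to 1.76-fold for Per3. In the replicates fitted apart the highest limits were 2.14-fold in A (Per3) and 1.88-fold in B (Clock). From 24 to 120 h they were 1.875-fold in A (Nr1d1) and 2.02-fold in B (Per2).

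The gene with an unadjusted p below 0.05 in this fit over 0 to 120 h was Clock. Its amplitude was 0.21 (SE 0.07) and its fitted peak fell 7.15 h into each 24 h (SE 1.16 h), with an adjusted p of 0.0952 in limma. The replicates fitted apart gave 7.15 h in A (amplitude 0.16, adjusted p = 0.419) and 7.16 h in B (amplitude 0.26, adjusted p = 0.815). Without the first day, which holds the 6 h libraries, the amplitude was 0.13 (SE 0.07, adjusted p = 0.452), with the peak at 7.25 h. In that span 0 of 10 clock genes passed, against 0.049% of all genes, with 0 of 10 at an unadjusted p below 0.05 in limma, beside 17.4% of all genes. In replicate A alone over that span, 1 of 10 was (Nr1d1, amplitude 0.26, SE 0.09, adjusted p = 0.462), beside 10.4% of all genes. Counts of the highest and lowest of the 4 hours of each day, chosen after the values were seen, reached 4 of 5 days for the low of Clock in B (at 18 h) and for the high of Per2 in A (at 6 h), and 3 of 5 or fewer for every other gene and replicate.

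**Figure D3:**
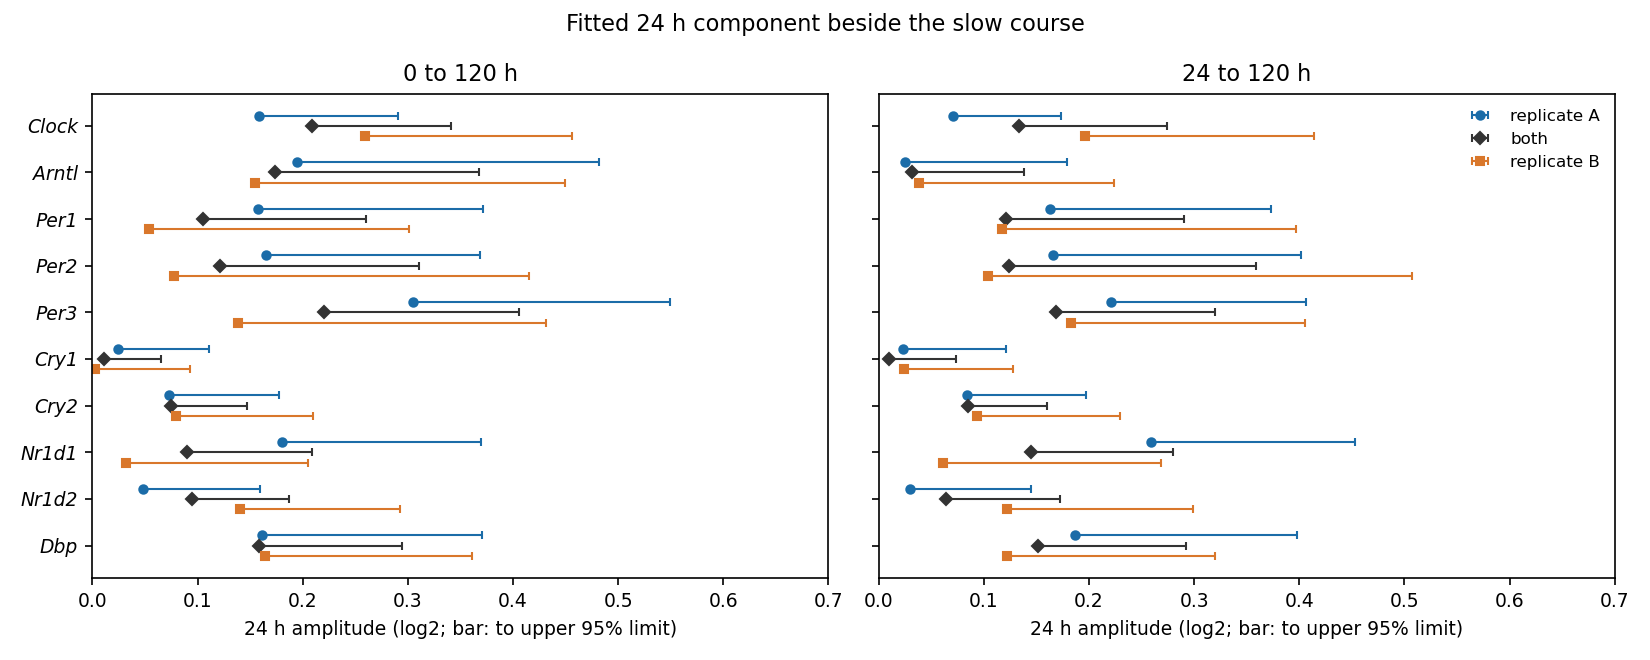
Amplitude in log2 units of the fitted 24 h component of each clock gene (horizontal axis), from 0 to 120 h on the left and from 24 to 120 h on the right, for replicate A, both replicates and replicate B, with bars up to the upper 95% limit. None of the components passed the threshold, and the amplitudes over both replicates were 0.22 or less.

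A periodogram of each course was also computed, without a smooth course. With only the mean removed, the period holding most power was 121 h, the length of the series, for 9 of the 10 genes in both replicates. For Clock it was 121 h in A (28.2% of the power) and 24.2 h in B (24.5%), and the 24.2 h period held 19.5% of the power in A. No clock gene had its greatest power at 24.2 h in both replicates, which 45 genes (0.315% of all) did. The study, in contrast, lists Clock among genes with the same dominant period in both replicates, at 24.2 h. It used its own interpolation and the GeneCycle package, whereas values here were interpolated in straight lines. The part of the method in this difference was not tested. With a straight line removed as well, the greatest power for Clock was at 60.5 h in A and at 24.2 h in B. From 24 to 120 h it was at 96.8 h in A and at 32.3 h in B.

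None of the fitted phases of the loop genes belongs to a component that passed its test, so they are given as a description. With both replicates fitted together over 0 to 120 h, the peak of Arntl fell at 7.70 h (SE 2.06 h) and that of Dbp at 20.9 h (SE 1.61 h). Per3 was at 0.28 h (SE 1.66 h), Per1 at 0.48 h (SE 2.90 h) and Nr1d1 at 1.96 h (SE 2.54 h). Cry2 followed at 4.16 h (SE 1.80 h), Nr1d2 at 8.79 h (SE 1.86 h) and Per2 at 9.38 h (SE 2.98 h). In the replicates fitted apart, Nr1d1 was at 1.28 h in A (SE 1.98 h) and 7.56 h in B (SE 9.66 h). Likewise, A and B gave 7.36 and 8.1 h for Arntl, 21.7 and 20 h for Dbp, 23.9 and 1.09 h for Per3 and 0.18 and 1.38 h for Per1. They gave 3.35 and 4.90 h for Cry2, 9.0 and 8.72 h for Nr1d2 and 9.6 and 8.94 h for Per2. From 24 to 120 h the fitted peaks of both replicates together were at 23.4 h for Dbp (SE 1.81 h) and 1.62 h for Nr1d1 (SE 1.81 h). Those of Per1 and Per3 were at 2.57 h (SE 2.67 h) and 3.85 h (SE 1.66 h). Those of Cry2, Nr1d2 and Per2 were at 5.35 h (SE 1.60 h), 7.86 h (SE 3.08 h) and 8.89 h (SE 3.57 h). Fitted apart in this span, A and B gave 24 and 22.5 h for Dbp, 0.87 and 5.34 h for Nr1d1, 0.89 and 4.99 h for Per1 and 1.85 and 6.34 h for Per3. They gave 4.23 and 6.36 h for Cry2, 3.14 and 8.75 h for Nr1d2 and 10.1 and 6.90 h for Per2. No order of phases is read from these values. The amplitude of Arntl in this span was 0.03 (SE 0.05), too small for its phase to be defined, and the same holds for Cry1 over both spans, with amplitudes of 0.01 (SE 0.03).

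Deviations from the smooth course were also set side by side, as a description over time points that follow each other and share a library, without a test. Arntl and Per3 deviated in opposite directions, with Pearson r of -0.73 in A and -0.79 in B over 21 time points and -0.48 in each over the 17 from 24 h on. Arntl and Nr1d1, which stand in direct opposition in the loop, gave -0.05 in A and 0.09 in B over the whole course and -0.04 and 0.19 from 24 h on. Arntl and Nr1d2, the other receptor gene, gave 0.14 and -0.0047 over the whole course and -0.50 and -0.41 from 24 h on (17 time points). Clock and Arntl gave 0.78 in A and 0.44 in B over the whole course but -0.04 and 0.04 from 24 h on, a span that leaves out the 6 h libraries. For Arntl and Cry1 from 24 h on, r was -0.83 in A and -0.13 in B.

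**Figure D4:**
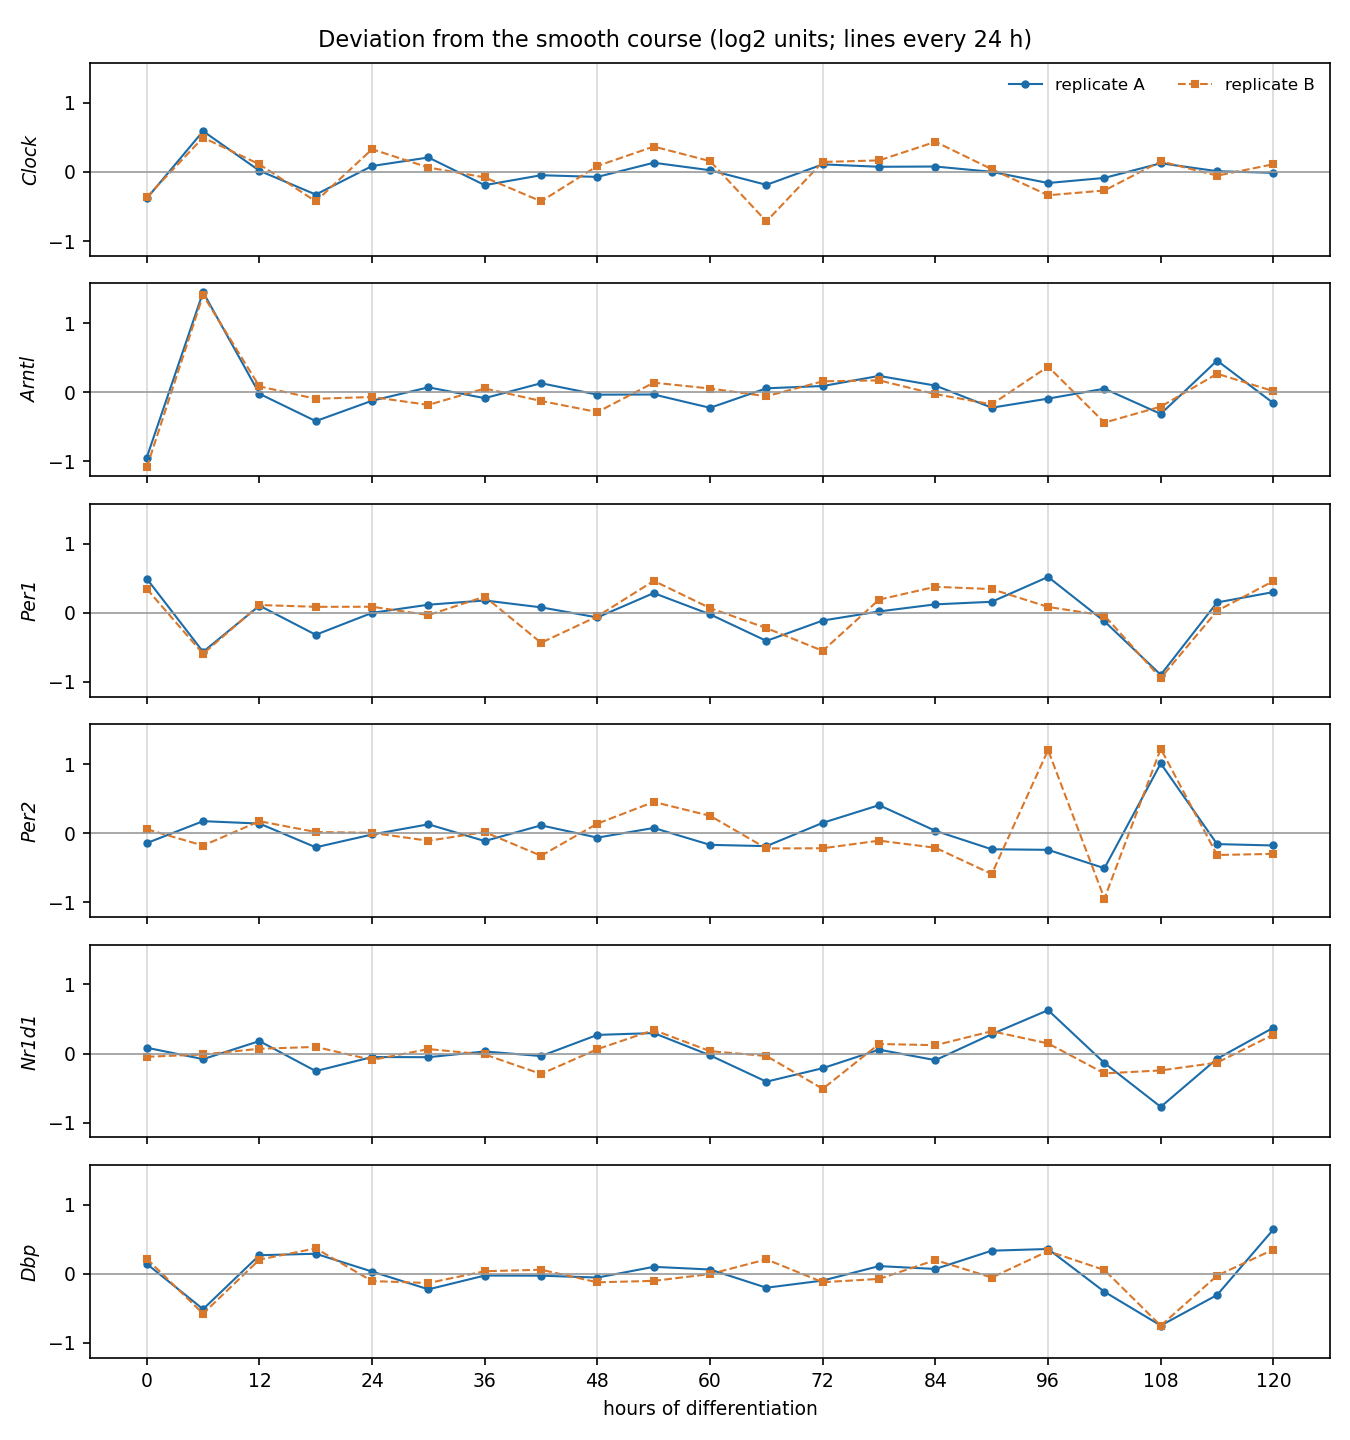
Deviation of Clock, Arntl, Per1, Per2, Nr1d1 and Dbp from a smooth course (vertical axis, log2 units) against hours of differentiation, for replicate A (blue) and replicate B (orange), with vertical lines every 24 h. The largest deviations stood at 0 and 6 h for Arntl and at 96 to 108 h for Per2, and no 24 h component of these genes passed its test.

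Over the whole course the levels of some clock targets went together, though no 24 h component was called for any of them. The means of the duplicates of Per1 and Nr1d1 had r of 0.84, those of Per1 and Dbp 0.81, those of Per3 and Dbp 0.80, and those of Cry1 and Nr1d2 0.88, each over 21 time points. These were among the highest of all pairs of clock genes. Other targets did not go together, such as Per1 and Per2 (0.14), Per2 and Per3 (-0.06) and Cry2 and Dbp (-0.27). Arntl ran against Per3 (-0.69) and Dbp (-0.59) and showed little relation to Nr1d1 (-0.20). Genes averaging 0 log2 CPM or more over the course were searched for likeness, and the course most like that of Arntl was that of Ric8b (r = 0.98), which also peaked at 6 h and was lowest at 90 h. The genes most like the others were Fryl for Clock (0.90), Tbl2 for Per1 (0.90), Fbxo33 for Per2 (0.91), Unc13b for Per3 (0.97), 1700019D03Rik for Cry1 (0.94), Rara for Cry2 (0.93), Gnptab for Nr1d1 (0.90), Slc7a5 for Nr1d2 (0.92) and Zfp940 for Dbp (0.92).

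Of 11 partner and loop transcription factors, 9 were in the files, and all 9 changed over the course, as did 74.6% of all genes. Of these, 4 of 9 were lower at 24 h than at 0 h (12.8% of all genes), 3 were higher at 48 h than at 24 h (5.27% of all genes), and 3 were higher at 72 h than at 48 h (5.6%). Bhlhe40, whose protein represses at E-boxes, fell from 6.43 at 0 h to 3.87 at 24 h (-2.56, SE 0.13, adjusted p = 7.49e-15), and its relative Bhlhe41 from 1.71 to -0.79 (-2.50, SE 0.25, adjusted p = 5.09e-09). Nfil3, a repressor at D-boxes, fell by 1.20 (SE 0.19, adjusted p = 6.91e-06) and Tef, an activator there like DBP, by 0.76 (SE 0.15, adjusted p = 8.68e-05). Hlf, a relative of Dbp, was at 1.23 at 0 h and 2.44 at 24 h, and Ciart, a repressor of CLOCK and ARNTL, at 3.26 and 3.87, and neither difference passed. Bhlhe41 then rose by 3.91 from 24 to 48 h (SE 0.25, adjusted p = 2.75e-12). Rora, which activates Arntl at ROREs in opposition to NR1D1, rose from 2.45 at 48 h to 4.35 at 72 h (+1.89, SE 0.21, adjusted p = 8.64e-08), when Arntl was near the low end of its course.

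**Figure D5:**
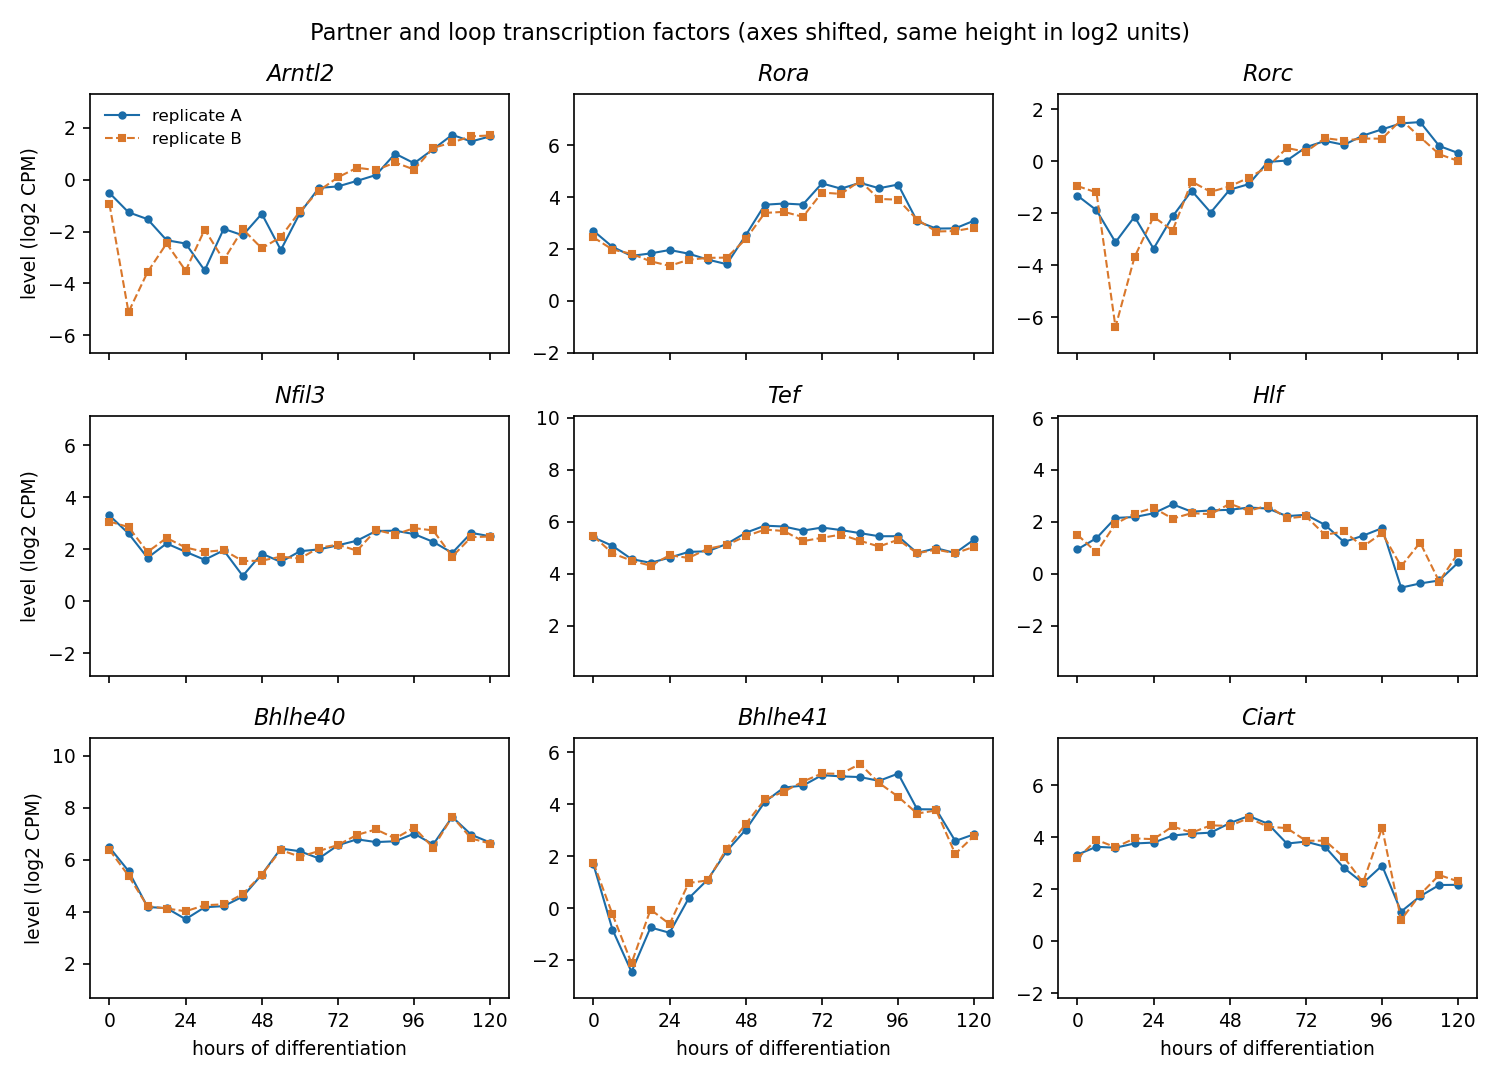
Level in log2 CPM (vertical axis, the same height in every panel) of 9 partner and loop transcription factors against hours of differentiation, with replicate A in blue and replicate B in orange. The levels of Bhlhe40 and Bhlhe41 at 24 h lay under those at both 0 and 48 h, and Ciart was lowest at 102 h.

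Of 12 kinases, ligases and cofactors of the clock proteins in the files, 4 were higher and 2 lower at 6 h than at 0 h, beside 11.8% and 14.5% of all genes. Sirt1, a deacetylase that acts on clock proteins, rose by 1.37 (SE 0.15, adjusted p = 1.29e-08), and Btrc, a ligase subunit that targets PER, fell by 1.03 (SE 0.09, adjusted p = 5.41e-10) and rose again by 0.91 from 6 to 12 h. Csnk1e, a kinase of PER, fell by 0.84 (SE 0.12, adjusted p = 1.58e-06), whereas its relative Csnk1a1 rose by 0.63 (SE 0.10, adjusted p = 4.00e-06). Of 8 genes known to be clock-controlled, Usp2 fell by 2.32 (SE 0.17, adjusted p = 7.53e-12) and Nampt by 0.64 (SE 0.11, adjusted p = 1.56e-05) from 0 to 6 h, and the other 6 did not pass (14.5% of all genes were lower). None of the genes in these 3 lists had a 24 h component past the threshold, in both replicates together or in either alone, and in limma 6, 1 and 1 of these 29 genes had an unadjusted p below 0.05, beside 28%, 11.9% and 5.15% of all genes.

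Serum, glucocorticoids and cAMP are known to set or restart clocks in cultured cells, and genes that answer to them were followed beside the clock genes. Of 9 immediate early genes, 5 rose from 0 to 6 h (Atf3, Nr4a1, Egr1, Junb and Ier2, against 11.8% of all genes), with +2.12 for Atf3 (SE 0.27, adjusted p = 2.54e-07) and +1.90 for Nr4a1 (SE 0.15, adjusted p = 3.09e-11). From 6 to 12 h, 3 of the 9 fell, against 2.88% of all genes. Egr1 was the only gene of the lists of clock and stimulus genes with a 24 h component past the threshold, with an amplitude of 0.46 (SE 0.10, adjusted p = 0.0367) and a fitted peak at 11.4 h (SE 0.83 h). From 24 to 120 h its amplitude was 0.44 and its peak at 12.4 h (adjusted p = 0.0687), and neither replicate alone passed (adjusted p = 0.361 in A and 0.815 in B). The call of Egr1 thus rests on the joint fit, which counts the libraries of the same hour as independent and can give p-values that are too small. In limma, 6 of the 9 immediate early genes had an unadjusted p below 0.05 for this component in the joint fit. In A it was 5 and in B 2, beside 28%, 11.9% and 5.15% of all genes in the 3 fits. In the joint fit it was also 2 of 5 glucocorticoid-responsive and 1 of 4 cAMP-responsive genes. None of 5 glucocorticoid-responsive genes and 1 of 4 cAMP-responsive genes (Sik1, +0.76, SE 0.13, adjusted p = 1.39e-05) rose at 6 h, against 11.8% of all genes. At an unadjusted p below 0.05 in limma, 3 of these 5 and 2 of these 4 rose, where 62% of all genes changed in either direction. Around the Per2 step at 108 h, Nr4a1 rose by 1.61 (SE 0.15, adjusted p = 1.75e-08), Junb by 1.22 (SE 0.15, adjusted p = 1.18e-06) and Bhlhe40 by 1.13 (SE 0.13, adjusted p = 3.71e-07). Sirt1 (+0.94, SE 0.15, adjusted p = 5.39e-05), Csnk1d (+0.60, SE 0.08, adjusted p = 3.66e-06) and the glucocorticoid-responsive Sgk1 (+0.78, SE 0.13, adjusted p = 7.36e-05) rose there too. Called higher in that step were 2 of 9 immediate early genes, 2 of 12 kinases, ligases and cofactors, 1 of 9 partner factors and 1 of 5 glucocorticoid-responsive genes. None of 8 clock-controlled and 4 cAMP-responsive genes were, beside 1.37% of all genes. Of the other glucocorticoid-responsive genes, none called, Klf9 (+0.64) and Zbtb16 (+1.58) were higher and Fkbp5 (-0.27) and Tsc22d3 (-0.37) lower. Whether these genes had a part in the moves of Arntl or the Per genes was not tested.

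The libraries held 10120972 to 51652434 counted reads (median 29692082), and their median level over all genes ran from 4.26 to 4.45. At 0 h the stem cell marker Pou5f1 was at 9.98, and the 7 pluripotency markers came to a summed 4143 and 4479 CPM. Of 6 markers of fibroblasts or feeder cells in the files, Col3a1 and Dcn had 0 reads at 0 h in both libraries, while Thy1 was at 4.37 and Col1a1 at 2.40, and the summed level of the 6 was 24.2 and 27.97 CPM at 0 h and 102 and 91.5 CPM at 120 h. Their part in the clock gene levels was not tested.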

How the data were processed

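RNA-seq was measured in 42 libraries of differentiating W9.5 ES cells. The authors removed adaptors (Trim Galore), mapped read pairs to the mm10 build (TopHat2), obtained gene counts from GENCODE vM2 (HTSeq) and scaled for library size (edgeR), and the deposited values are log2 CPM from limma's voom, which adds 0.5 read to each count. Versions and the strand setting of HTSeq are not given in the sources used here. Whole reads could be recovered from every value (largest distance 2.91e-08).

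Gene symbols came from GENCODE vM21 by Ensembl identifier (14177 of 14296 matched). The deposited values were fitted in limma 3.58.1 (R 4.3.3), with 1 level per time point, eBayes with a trend and Benjamini-Hochberg adjustment over all genes, at 0.0001 as in the study. The 24 h component was the cosine and sine beside a natural spline of 4 degrees of freedom, with a moderated F test at 0.05. The fits were run on simulated counts with independent libraries and no slow course of differentiation. These counts cannot show how deviations shared by the replicates affect the joint fit. Replicates were not paired, since residuals of the same letter correlated by 0.08 on average over 210 pairs of time points. Of these correlations 68.6% were positive, and the calls of Clock change with the letter as a block, as given below. All clock genes, passing members of the other lists (up to 4 by size) and the most alike gene of each clock gene are named. A few genes beyond this rule (Ier2, Thra, Sphk2 and the genes around 108 h) were named after their values were seen. The gene lists and members were chosen with earlier results of these data known. Alternatives covered scaling, filters, weights, thresholds, spline, period, block and single libraries. The depth was 10120972 to 51652434 counted reads, where 3 reads are 0.0571 to 0.316 CPM, and covers counting error only.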

Additional observations from a re-analysis of the deposited data

How the results depend on the processing

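No called change of a clock gene turned direction under any alternative run, and the count of clock genes with a 24 h component stayed at 0 with other periods (20 and 28 h), other splines (3 and 6 degrees of freedom), from 24 h on, and, as an alternative chosen after seeing the data, without both 96 h libraries. With the replicate letter as a block, which removes the offset of Clock between A and B, Clock changed over the course as well (adjusted p = 1.19e-05) and from 0 to 6 h (+0.79, adjusted p = 7.74e-05), so that 10 genes changed over the course, 4 from 0 to 6 h and 6 steps passed. Its 24 h component stayed short of the threshold (adjusted p = 0.0515, and 0.0515 to 0.815 over all alternatives). The block changed no other call of a clock gene, and the letters share only a name in the labels. At an adjusted p below 0.05 the number of clock genes called was 6 between 0 and 6 h, 3 between 6 and 12 h, and 26 over all steps of 6 h. For the intervals of 24 h it was 4, 5, 4, 2 and 4 in order of time, and it was 6 between 0 and 120 h. The share of all genes at this adjusted threshold was not counted. At an unadjusted p below 0.05 in limma, 6 of the 10 clock genes passed from 0 to 6 h beside 62% of all genes. From 6 to 12 h it was 4 of 10 beside 36.7%. For the intervals of 24 h it was 4, 5, 5, 3 and 6 of 10, beside 60.2%, 38.7%, 48.8%, 40.2% and 31.3% of all genes. From 0 to 120 h it was 6 of 10 beside 56.9%. The counts at an adjusted p below 0.05, that over all steps included, have no share of all genes beside them. No response of the clock genes is read from either set of counts. Leaving out single libraries gave 9 to 9 genes over the course, 2 to 3 between 0 and 6 h and 1 to 1 between 6 and 12 h. For the intervals of 24 h ending at 24 and at 72 h it gave 0 to 1, for that ending at 48 h 0 to 0, for that ending at 96 h 0 to 2 (2 without the 96 h library of A) and for that ending at 120 h 0 to 1 (1 without the 96 h library of B). Between 0 and 120 h it gave 0 to 1, and over all steps of 6 h it gave 3 (without the 0 h library of A) to 10 (without the 96 h library of A). The cause of these moves was not tested. The Arntl steps at 6 and 12 h and the Per3 step at 6 h passed in every alternative, whereas the Per2 step at 108 h was lost without the eBayes trend (adjusted p = 0.0002) and with voom weights on the recovered reads (adjusted p = 0.000674), and the Cry1 change from 0 to 120 h without the trend (adjusted p = 0.000128). With 2 libraries per time point, a daily amplitude under the limits given above could have been missed. The fit holds a single amplitude and phase over its whole span, so the limits do not cover a rhythm that begins late or shifts in phase.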
